A study of Mus musculus with 2 samples.

Results

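The measurements below concern 10 mouse genes of capillary lipid uptake among the 33696 genes counted. They were taken by name, as a set chosen with earlier results of these data known, and are Lpl, Gpihbp1, Cd36, Fabp4, Fabp5, Pparg, Cd300lg, Car4, Rgcc and Timp4. All 10 were present in the count tables and had at least 1 UMI (a unique molecular identifier, which marks 1 captured RNA molecule) in blood endothelial cells of both libraries. Tumors came from PyMT-M and PyMT-N, a pair of sublines derived from MMTV-PyMT mammary tumors of mice, in which the mammary tumor virus promoter drives the polyoma middle T antigen. The study classes PyMT-M as High-MAC (rich in macrophages) and PyMT-N as Low-MAC. Cultured cells of each subline were injected into the mammary fat pad of female C57BL/6 recipients 6 to 8 weeks of age, so both tumor types grew in hosts of a single background. Leukocytes and erythroid cells were removed from the dissociated tumors by their CD45 and Ter119, and cells bearing CD31 and CD144 were then enriched on beads and sorted. Sorted cells of 3 tumors were combined for each subline and made into a single 10x Genomics 3′ library. Each condition therefore has 1 library, no difference between PyMT-M and PyMT-N has a replicate check, and none was tested.

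Capillaries of muscle, heart and fat take fatty acids out of the blood. Lipoprotein lipase (LPL), made mainly by the cells around the vessel, cuts triglycerides in circulating lipoproteins, and GPIHBP1 carries the enzyme across the endothelium and holds it on the luminal surface. CD36 takes up the released long-chain fatty acids, FABP4 and FABP5 bind them in the cytosol, and the nuclear receptor PPARγ, encoded by Pparg, induces Cd36 and Fabp4 through DNA elements built from the hexamer AGGTCA. Cd300lg, Car4, Rgcc and Timp4 are markers of capillary endothelium.

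Promoter sequence was available for 5 of the 10 genes, with 7 start sites, in the RefSeq table for build GRCm38.p6. These were Cd36, Pparg, Car4, Rgcc and Timp4. The counts were made on build mm39 and carry no coordinates, so the windows below describe the genes and not the counted molecules. Each window holds the 250 bases before the start site, written 5′ to 3′ along the gene's strand. Cd36 and Rgcc are shown as the 2 of these 5 genes with the largest ratios between the libraries, Cd36 being a known PPARγ target. The window of Cd36 is chr5:17835897-17836146 on the minus strand and that of Rgcc is chr14:79301636-79301885 on the minus strand. Capitals mark the AGGTCA hexamer, which reads TGACCT on the other strand.
Cd36: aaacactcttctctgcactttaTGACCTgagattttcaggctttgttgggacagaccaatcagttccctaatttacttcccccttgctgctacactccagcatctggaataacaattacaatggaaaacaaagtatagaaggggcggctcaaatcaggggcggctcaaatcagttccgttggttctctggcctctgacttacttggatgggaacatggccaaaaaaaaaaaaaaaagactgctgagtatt
Rgcc: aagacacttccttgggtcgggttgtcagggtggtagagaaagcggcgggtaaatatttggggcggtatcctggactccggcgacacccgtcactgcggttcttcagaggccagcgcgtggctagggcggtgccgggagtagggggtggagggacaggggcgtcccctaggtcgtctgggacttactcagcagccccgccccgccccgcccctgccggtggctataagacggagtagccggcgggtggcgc
The Cd36 window held the hexamer on the opposite strand at positions -228 to -223 from the start. The Rgcc window held none of the 4 motifs searched on either strand, which were AGGTCA, the direct repeat AGGTCANAGGTCA, CCGGAAGT and TATAAA. Of 3 Pparg windows, 2 held AGGTCA, at -28 to -23 and at -9 to -4, and the latter window also held TATAAA on the opposite strand at -29 to -24. No motif was found in the Car4 and Timp4 windows. Windows of the same length over 32851 start sites held AGGTCA in 14% of cases, TATAAA in 12.4%, CCGGAAGT in 2.88% and the direct repeat in 0.0335%, so a single AGGTCA is common. Counts per gene do not show which Pparg start was used.

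Of 7821 PyMT-M and 6974 PyMT-N barcodes, 6719 and 5607 had at least 200 detected genes and at most 10% mitochondrial UMIs. They held 139729636 and 114669155 UMIs, and 12 kept barcode sequences occurred in both libraries. Cells were classed by UMIs of genes outside the set. Blood endothelial cells had at least 5 UMIs of Pecam1, Flt1, Emcn and Kdr together and at most 1 of Krt8, Krt18 and Rhox5, and they numbered 598 in PyMT-M (8.90% of kept cells) and 1243 in PyMT-N (22.2%). Although the cells are labelled endothelial, 73.0% of PyMT-M and 59.0% of PyMT-N cells met the tumor rule, with at least 3 UMIs of Krt8, Krt18 and Rhox5 and none of Pecam1 or Flt1. Lymphatic cells (at least 3 UMIs of Prox1, Mmrn1 and Reln) numbered 20 and 207, fibroblasts (Col3a1 at 3000 CPM or more) 58 and 63, and cells with a UMI of Ptprc, the gene of CD45, 488 and 357. All 12 endothelial markers were detected in the blood endothelial cells of both libraries, at a summed 8225 CPM (UMIs of a gene per 1000000 UMIs of the class) in PyMT-M and 7323 in PyMT-N. The classes may overlap. In PyMT-N 174 blood endothelial cells also met the lymphatic rule and 58 carried Ptprc, against 8 and 6 in PyMT-M. The 7 lymphatic markers accordingly summed to 2325 CPM in PyMT-N and 147 in PyMT-M, and the 10 macrophage markers to 446 and 25.7 CPM. In the 583 PyMT-M and 1013 PyMT-N blood endothelial cells that met no other class rule, these sums were 149 and 63.2 CPM for the lymphatic list and 5.60 and 5.52 CPM for the macrophage list. Member values in these cells stand beside the main ones below. The median depth of blood endothelial cells was 5195.5 UMIs in PyMT-M against 12601 in PyMT-N, so shares of cells are also given after thinning every cell to 3000 UMIs, which left 488 and 1236 cells. Every interval is an exact 95% interval and covers counting error only.

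Most of the set was higher in PyMT-M blood endothelium. Cd36, Fabp5, Cd300lg, Fabp4 and Lpl were at least 2-fold higher in PyMT-M, Rgcc and Pparg were higher by a smaller ratio, and Gpihbp1 was close to equal once cells that met another class rule were left out. Car4 was the only member lower in PyMT-M, and Timp4 had too few UMIs to give a direction. The 5 members at least 2-fold higher in PyMT-M compare with 2.47% of the 8995 ranked genes (those with at least 200 UMIs over both libraries in this class), and 4 of the 7 ranked members were among them. No member was at least 2-fold lower, where 5.17% of ranked genes were. At a fold of 1.5, 7 members were higher, where 7.74% of ranked genes were, and 1 (Car4) was lower, where 10.7% were. The median log2 ratio, here and below with PyMT-M as the numerator, was 1.23 over the 10 members and -0.02 over all ranked genes. By this ratio Cd36 stood at percentile 99.9 of the ranked genes, Cd300lg and Fabp5 at 99.8, Fabp4 at 99.3, Rgcc at 96.3, Pparg at 93.8 and Gpihbp1 at 84.1.

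**Figure D1:**
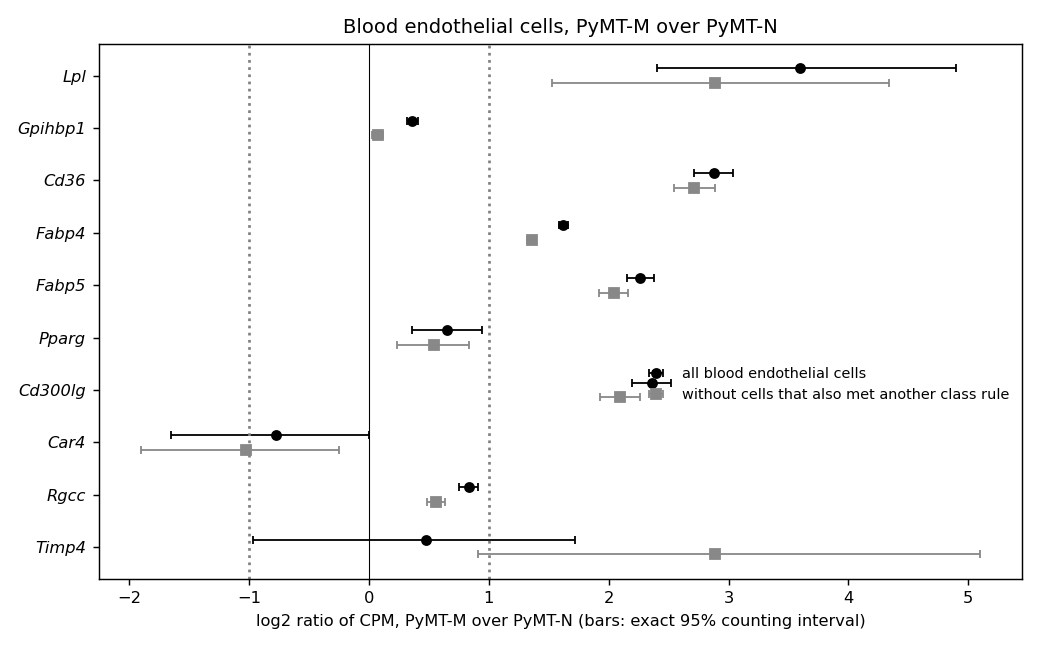
Log2 ratio of CPM, PyMT-M over PyMT-N, for each of the 10 genes in blood endothelial cells, with exact 95% counting intervals. Black circles are all blood endothelial cells, grey squares only those that met no other class rule, and dotted lines mark a 2-fold difference; Cd36, Fabp4, Fabp5, Cd300lg and Lpl lie beyond the upper line in both, and Gpihbp1 falls from 0.36 to 0.07.

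Lpl, the lipase gene, was nearly absent from blood endothelium. It stood at 6.28 CPM (3.89 to 9.60) in PyMT-M, from 21 UMIs in 14 cells, and at 0.521 CPM (0.238 to 0.988) in PyMT-N, from 9 UMIs in 5 cells. The log2 ratio was 3.59 (2.41 to 4.90), and 2.88 (1.53 to 4.34) in cells that met no other class rule, where 14 and 8 UMIs remained. Fibroblasts carried more of the transcript, at 83.8 CPM in PyMT-M against 50.9 CPM in PyMT-N, so the blood endothelial level lay below the fibroblast level by log2 ratios of -3.74 and -6.61. Ptprc+ cells with at least 3 UMIs of macrophage markers held 99.5 CPM in PyMT-M and 19.3 CPM in PyMT-N. In those cells the macrophage markers summed to 7465 and 4164 CPM and the lymphocyte markers to 684 and 1484 CPM. Fibroblast markers summed to 60.7 CPM in the blood endothelial cells of PyMT-M and 21.1 CPM in those of PyMT-N, and their part in the Lpl ratio was not tested. Tumor cells held 6 and 2 UMIs of Lpl in all.

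Gpihbp1, the carrier of the lipase, was by contrast found in most blood endothelial cells. Its level was 1477 CPM (1436 to 1519) in PyMT-M and 1152 CPM (1136 to 1168) in PyMT-N, giving a log2 ratio of 0.36 (0.31 to 0.40). Without cells that met another class rule the levels were 1504 and 1429 CPM, and the ratio was 0.07 (0.03 to 0.12). A UMI of Gpihbp1 was present in 81.3% of PyMT-M and 75.9% of PyMT-N cells, in 80.9% and 67.2% after thinning, and in 82.0% and 81.2% after thinning in cells that met no other class rule. The libraries thus differed little in this gene, and the larger gap was seen only with the overlapping cells included. Lymphatic cells held 67.4 CPM in PyMT-M (6 UMIs) and 17.3 CPM in PyMT-N, and tumor cells held 0.728 and 1.35 CPM. Gpihbp1 was detected in 1.53% and 2.99% of tumor cells, whose median depths were 23715.5 and 20757.5 UMIs. These shares cannot give the level that free RNA may reach, since the tumor rule left out cells with a UMI of Pecam1 or Flt1.

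**Figure D2:**
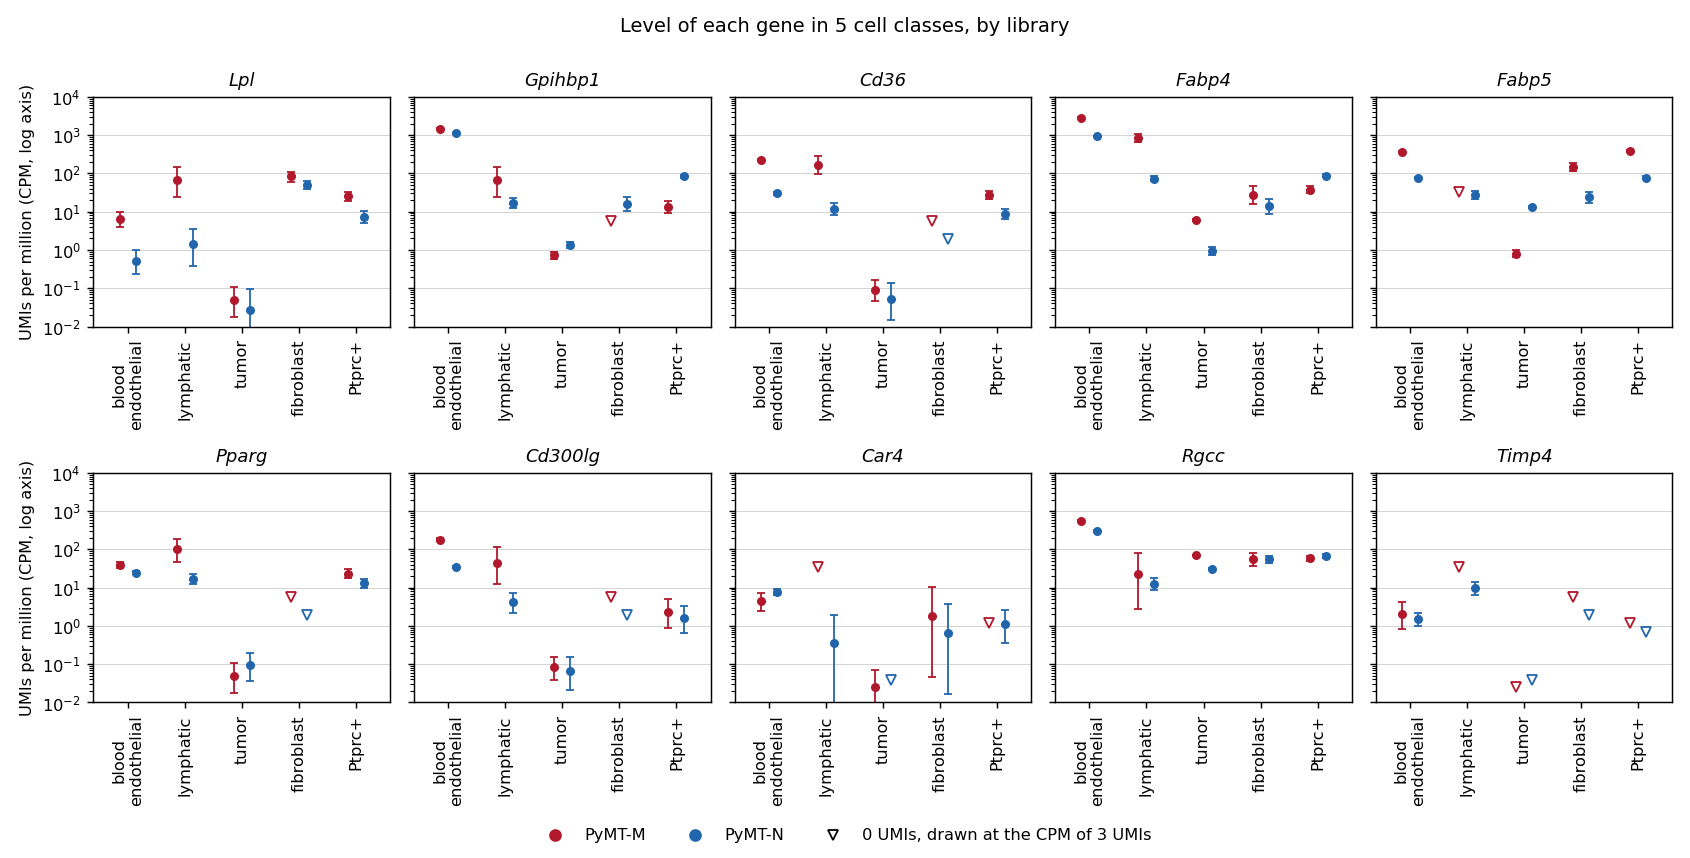
Level of each of the 10 genes in CPM (log axis) in blood endothelial, lymphatic, tumor, fibroblast and Ptprc+ cells of PyMT-M and PyMT-N, with exact 95% counting intervals. Triangles mark classes with 0 UMIs, drawn at the CPM that 3 UMIs would give; Gpihbp1, Fabp4 and Cd300lg are highest in blood endothelial cells of both libraries, and Lpl is higher in fibroblasts than in blood endothelial cells.

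Cd36, the fatty acid translocase, showed the largest ratio among the members with more than 100 UMIs in each library. It stood at 225 CPM (209 to 242) in PyMT-M and 30.7 CPM (28.1 to 33.4) in PyMT-N. The log2 ratio was 2.87 (2.71 to 3.04). In cells that met no other class rule the levels were 227 and 34.6 CPM and the ratio 2.72 (2.55 to 2.88). More cells carried the transcript in PyMT-M, with 45.7% against 15.1% as sequenced and 34.2% (30.0 to 38.6) against 6.31% (5.02 to 7.81) at equal depth. In PyMT-N the Cd36 UMIs were held by few cells. The 10% of cells with most Cd36 held 88.1% of them there, against 52.7% in PyMT-M. These values are as sequenced and follow in part from the number of cells with a Cd36 UMI, 188 in PyMT-N and 273 in PyMT-M. Cd36 was nearly absent from tumor cells and fibroblasts, with 11 and 4 UMIs in all tumor cells and 0 UMIs in the fibroblasts of both libraries, which allows up to 5.58 and 1.96 CPM. Other cells did carry it. Ptprc+ cells with macrophage markers held 66.3 CPM in PyMT-M against 8.18 CPM in PyMT-N, and lymphatic cells held 169 against 12 CPM.

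Fabp4, the adipocyte-type fatty acid binding protein, was carried by most cells of both libraries and differed in amount per cell. Its level was 2876 CPM (2819 to 2934) in PyMT-M and 935 CPM (921 to 950) in PyMT-N, giving a log2 ratio of 1.62 (1.58 to 1.66). Cells that met no other class rule held 2932 and 1144 CPM, with a ratio of 1.36 (1.32 to 1.39). A Fabp4 UMI was found in 67.1% and 61.1% of cells as sequenced, and in 62.9% (58.5 to 67.2) and 49.7% (46.9 to 52.5) at equal depth, where the mean number of UMIs per cell was 8.57 and 2.90. The share of cells therefore differed less between libraries than the level did. Adipocytes make much Fabp4, and 4 of their defining markers, Adipoq, Plin1, Cfd and Lep, had 0 UMIs in the blood endothelial cells of both libraries. The 10 adipocyte markers summed to 0.30 CPM in PyMT-M and 0.35 CPM in PyMT-N. In tumor cells Fabp4 stood at 6.15 CPM in PyMT-M and 0.926 CPM in PyMT-N.

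Fabp5, the epidermal-type relative of Fabp4, differed more strongly. It stood at 374 CPM (354 to 395) in PyMT-M and 78.0 CPM (73.9 to 82.3) in PyMT-N, giving a log2 ratio of 2.26 (2.15 to 2.37), and at 349 and 84.9 CPM (2.04, 1.92 to 2.16) in cells that met no other class rule. As sequenced, 31.9% of PyMT-M and 27.0% of PyMT-N cells carried it, and at equal depth 27.0% and 11.6% did. Ptprc+ cells, at 377 CPM in PyMT-M and 78.0 CPM in PyMT-N, and fibroblasts, at 147 and 24.2 CPM, showed the same order. Among Ptprc+ cells, those with macrophage markers held 1265 and 98.1 CPM. Those with at least 3 UMIs of lymphocyte markers went the other way, at 22.2 and 51.2 CPM on 11 and 38 UMIs. Lymphatic cells had 0 UMIs in PyMT-M and 27.9 CPM in PyMT-N. Tumor cells showed the opposite order to blood endothelium, with 0.794 CPM in PyMT-M and 13.1 CPM in PyMT-N, where 15.5% of tumor cells carried a UMI against 0.898% in PyMT-M. The blood endothelial level was accordingly 471 times the tumor level in PyMT-M and 5.96 times in PyMT-N. Between cells that met no other class rule these folds were 1099, on 38 tumor UMIs, and 6.53. The share of Fabp5+ cells in PyMT-N blood endothelium at equal depth lay above the 3.06% of thinned tumor cells. As for Gpihbp1, the tumor share cannot give the level that free RNA may reach.

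Pparg, the regulator in the set, was carried by a minority of cells. Its level was 38.6 CPM (32.2 to 45.8) in PyMT-M and 24.5 CPM (22.2 to 27.0) in PyMT-N, giving a log2 ratio of 0.65 (0.36 to 0.94), and 0.54 (0.23 to 0.83) in cells that met no other class rule. The as-sequenced share was lower in PyMT-M, at 16.6% against 21.5%, and the share at equal depth was higher, at 10.5% (7.88 to 13.5) against 5.83% (4.59 to 7.28). The order of the unthinned shares went against that of the CPM, and the order at equal depth matched it. Tumor cells held 6 and 7 Pparg UMIs in all, and fibroblasts held none.

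Of the capillary surface genes, Cd300lg, which encodes a lumen-facing receptor of the CD300 family also called nepmucin, behaved like Cd36. Its level was 178 CPM (164 to 193) in PyMT-M and 34.7 CPM (32.0 to 37.6) in PyMT-N, giving a log2 ratio of 2.36 (2.19 to 2.52), and 181 and 42.4 CPM (2.10, 1.93 to 2.26) without cells of another class. At equal depth it was carried by 35.7% (31.4 to 40.1) of cells in PyMT-M against 8.66% (7.15 to 10.4) in PyMT-N. All tumor cells together held 10 and 5 UMIs.

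Rgcc, a regulator of the cell cycle used as a capillary marker, was at 545 CPM (521 to 571) in PyMT-M and 307 CPM (299 to 315) in PyMT-N. The log2 ratio was 0.83 (0.75 to 0.91), and 0.56 (0.48 to 0.64) in cells that met no other class rule, with 554 and 376 CPM. At equal depth 55.3% and 43.4% of cells carried it, and 56.4% and 52.1% without the overlapping cells. Rgcc was also common in tumor cells. They held 69.9 CPM in PyMT-M against 31.0 CPM in PyMT-N, so the blood endothelial level was 7.81 and 9.88 times theirs. Tumor cells carried Rgcc in 17.2% and 6.93% of cells at equal depth.

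Car4, the membrane-bound carbonic anhydrase of capillaries, was rare, and it was the member that went the other way. It stood at 4.49 CPM (2.51 to 7.40) in PyMT-M, from 15 UMIs, and at 7.69 CPM (6.44 to 9.12) in PyMT-N, from 133 UMIs. The log2 ratio was -0.78 (-1.66 to -0.0045), and -1.03 (-1.91 to -0.25) in cells that met no other class rule. As sequenced, only 1.84% of PyMT-M and 4.26% of PyMT-N cells carried it. The PyMT-N cells were deeper, with a median of 12601 against 5195.5 UMIs, so these 2 shares cannot be ordered. Timp4, a metalloproteinase inhibitor and heart capillary marker, had 7 UMIs in PyMT-M against 26 in PyMT-N, or 2.09 and 1.50 CPM, and a log2 ratio of 0.48 (-0.97 to 1.72). In PyMT-N only 4 of these 26 UMIs were in cells that met no other class rule, and the log2 ratio was then 2.88 (0.91 to 5.10) on 7 and 4 UMIs. Lymphatic cells of PyMT-N held 28 Timp4 UMIs in 10 of 207 cells, a level of 9.88 CPM, and tumor cells of both libraries held none.

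**Figure D3:**
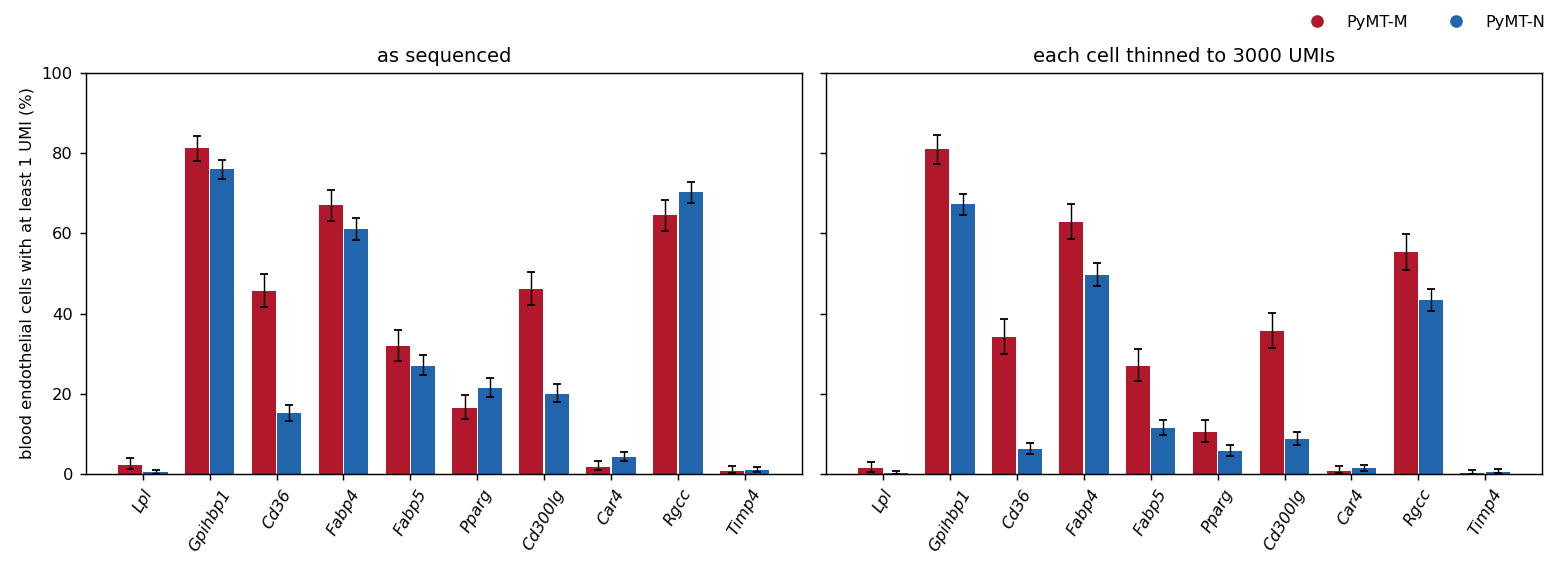
Percent of blood endothelial cells with at least 1 UMI of each gene in PyMT-M and PyMT-N, with exact 95% intervals. The left panel is as sequenced and the right panel is after thinning each cell to 3000 UMIs. After thinning, Cd36 (34.2% against 6.31%) and Cd300lg (35.7% against 8.66%) show the widest gaps between libraries, while Gpihbp1, Fabp4 and Rgcc are common in both.

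Set against tumor cells of the same library, all 10 members were at least 2-fold higher in blood endothelial cells in both libraries. None was at least 2-fold lower. Of 13312 genes with at least 200 UMIs over both classes and libraries, 13.2% were higher in this way and 8.27% lower. These included 7 members, all 7 of them higher, while Lpl, Car4 and Timp4 had fewer UMIs. The cells were classed by other genes, and the tumor rule admitted no UMI of Pecam1 or Flt1. That rule may lower endothelial RNA in the tumor class and so raise the folds below, which was not tested. Cd36 was 2471 times the tumor level in PyMT-M against 579 times in PyMT-N, and Gpihbp1 was 2029 and 853 times. Car4 and Timp4 were at 0 UMIs in the tumor cells of 1 and of both libraries, and against a floor of 3 UMIs over the library their blood endothelial levels were at least 194 times the tumor level in PyMT-N for Car4 and at least 84.3 and 37.9 times for Timp4. In cells that met no other class rule 4 Timp4 UMIs remained in PyMT-N, and its bound there was at least 7.26 times. Within the endothelium the set separated blood from lymphatic cells unequally. In PyMT-N, where 207 lymphatic cells gave usable sums, Gpihbp1 was 66.6 times, Rgcc 24.2 times, Fabp4 12.7 times and Cd300lg 8.20 times higher in blood endothelial cells, whereas Fabp5 was 2.80 times, Cd36 2.56 times and Pparg 1.42 times higher. Timp4 was lower in blood endothelial cells, at 0.15 times the lymphatic level, and Lpl was at 0.37 times (0.10 to 1.64) on 9 and 4 UMIs. These lymphatic cells include 174 that also met the blood endothelial rule, and without cells of another class 32 remained. Against these the folds were 37.6 for Gpihbp1, 28.5 for Fabp4, 9.38 for Rgcc, 4.47 for Fabp5 and 2.09 (0.95 to 5.72) for Pparg. Cd300lg was then 10.1 times higher (2.77 to 83.2) on 2 lymphatic UMIs. Cd36 had 0 UMIs in the 32 cells, so its blood endothelial level was at least 5.46 times higher against the floor of 3 UMIs. The 20 PyMT-M lymphatic cells, 8 of which met both rules, had 843 CPM of Fabp4 and 169 CPM of Cd36 on 75 and 15 UMIs.

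Members were found together in a larger share of PyMT-M than PyMT-N cells. At equal depth, Gpihbp1, Cd36 and Fabp4 were found together in 21.1% (17.6 to 25) of blood endothelial cells in PyMT-M but in 2.51% (1.71 to 3.54) in PyMT-N, and in 21.6% and 2.98% of those that met no other class rule. Cells had a UMI of a median of 3 members in PyMT-M and 2 in PyMT-N. Cells with none of Gpihbp1, Cd36, Fabp4, Cd300lg and Rgcc made up 4.30% and 18.8%, and 3.56% and 5.37% without the overlapping cells. All 5 of these genes were present in 6.76% and 0.809% of cells. Neither the 3 nor the 5 genes together can exceed the share of Cd36 alone, which differed widely between the libraries. These gaps therefore partly restate that of Cd36, and they were not set against the product of the single shares.

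**Figure D4:**
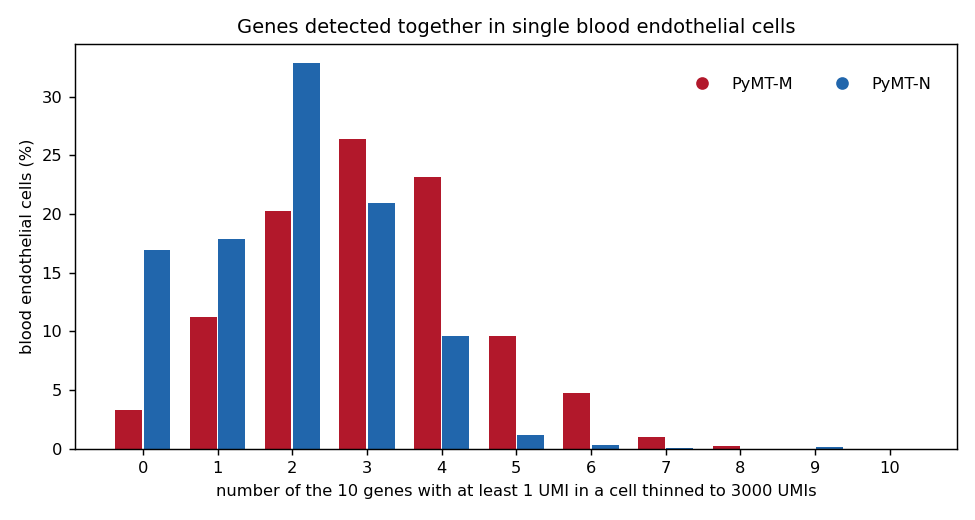
Percent of blood endothelial cells (y axis) by the number of the 10 genes with at least 1 UMI (x axis), after thinning each cell to 3000 UMIs, for 488 cells of PyMT-M and 1236 of PyMT-N. The PyMT-M cells are most often at 3 genes (26.4%) and the PyMT-N cells at 2 (32.8%), and cells with 0 genes are 3.28% and 16.9%.

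Fabp4 and Fabp5 were often found together. Fabp5 was present in 40.1% of PyMT-M cells with Fabp4 and in 4.97% of those without it, and in 18.9% and 4.34% in PyMT-N. The share of cells with both was 1.48 times the product of the single shares in PyMT-M and 1.63 times in PyMT-N. Cd36 went with Fabp4, which was present in 80.8% of PyMT-M cells with Cd36 and 53.6% of those without it, and in 64.1% and 48.7% in PyMT-N. Cd36 also went with its fellow surface gene Cd300lg, found in 45.5% and 30.5% of PyMT-M cells with and without Cd36, and in 25.6% (16.4 to 36.8) and 7.51% (6.06 to 9.18) in PyMT-N. Gpihbp1 went with Rgcc, and in PyMT-N also with Fabp4. Rgcc was present in 61.3% of PyMT-M cells with Gpihbp1 and 30.1% of those without, and in 54.7% and 20.2% in PyMT-N. The share of cells with both was 1.11 times the product of the single shares in PyMT-M and 1.26 times in PyMT-N (r of 0.29). In cells that met no other class rule it was 1.10 and 1.06 times, with an r of 0.12 in PyMT-N. Gpihbp1 and Fabp4 were found together at 1.01 times the product of their shares in PyMT-M and 1.23 times in PyMT-N (r of 0.36). Without cells of another class these values were 0.99 and 1.08 times, with an r of 0.25 in PyMT-N. Gpihbp1 and Cd36 were found together at 0.96 and 0.82 times the product of their shares, and at 1.01 and 1.03 times as sequenced. At equal depth in cells that met no other class rule the values were 0.97 and 0.76 times. In PyMT-M, RNA of these genes of successive uptake steps was thus found together about as often as their separate frequencies give. In PyMT-N it was found together less often at equal depth, but not as sequenced. Gpihbp1 was in most cells, which leaves such a value little room to rise above 1. All cells of a library share that library and its free RNA, and these co-detection values are descriptions.

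Car4, although rare, was more frequent among PyMT-N cells with Cd36 than among those without it. As sequenced, 27 of 188 PyMT-N cells with Cd36 carried Car4 against 26 of 1055 without it. The cells with Car4 thus divided about equally between those with and without Cd36, and 84 of the 133 Car4 UMIs were in Cd36+ cells. In PyMT-M 7 of 273 cells with Cd36 and 4 of 325 without it carried Car4, which is too few to order. At equal depth the PyMT-N shares were 8.97% (3.68 to 17.6) and 0.95% (0.475 to 1.69).

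Blood endothelial cells were also grouped by markers of tip, cycling, arterial and venous cells (at least 3 UMIs of a list, with cells allowed in several groups). These are ranges of a count that depends on depth, not cell types. Cd36 was higher in PyMT-M in all 4 groups, with log2 ratios of 2.71 in tip, 2.26 in cycling, 3.82 in arterial and 2.92 in venous cells. In arterial cells this was 336 CPM in PyMT-M and 23.8 CPM in PyMT-N. Cd300lg had ratios of 2.13 to 2.55, Fabp5 of 1.98 to 2.70 and Fabp4 of 1.11 to 2.52. In cells that met no other class rule the tip ratio of Fabp4 was 0.92. The groups share many cells. The venous group held 43.3% of PyMT-M and 91.8% of PyMT-N blood endothelial cells, and the tip group 57.7% and 82.1%. These ratios therefore partly restate the overall ones and cannot show whether the states differ alike. Gpihbp1 was higher in PyMT-M in cycling cells, with 1023 against 510 CPM (log2 ratio 1.00), and lower in arterial cells, with 1407 against 1652 CPM (-0.23). In cells that met no other class rule the cycling and arterial ratios of Gpihbp1 were 0.59 and -0.20. Whether ratios differ between these groups was not tested.

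Cells with fewer than 3 UMIs of each of these lists, 79 in PyMT-M against 38 in PyMT-N, stood apart. All 10 members were at least 2-fold higher in PyMT-M there, with Timp4 on 3 and 1 UMIs, where 20.0% of the 499 genes with at least 200 UMIs in these cells were. Only 3 members reached that number of UMIs. Of the 38 PyMT-N cells, 31 also met another class rule, 29 of them by Ptprc, and the macrophage list stood at 4315 CPM and the endothelial list at 1010 CPM, against 180 and 8662 CPM in PyMT-M, where 5 of 79 cells overlapped. Among the 74 and 7 cells that met no other rule, Cd36 was lower in PyMT-M, at 344 against 978 CPM (log2 ratio -1.51, -2.12 to -0.85), and so was Fabp4, at 4067 against 7695 CPM (-0.92). Lpl and Car4 were lower too, at -2.99 and -2.51 on 4 and 4 and on 7 and 5 UMIs. Of the UMIs of the 7 PyMT-N cells, all 30 of Cd36, all 4 of Lpl and 218 of 236 of Fabp4 were in 1 cell for each gene. The orders of these genes in this selection rest on such single cells. Among the 3 members with at least 200 UMIs, 0 were then 2-fold higher in PyMT-M, where 3.65% of 192 genes were.

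**Figure D5:**
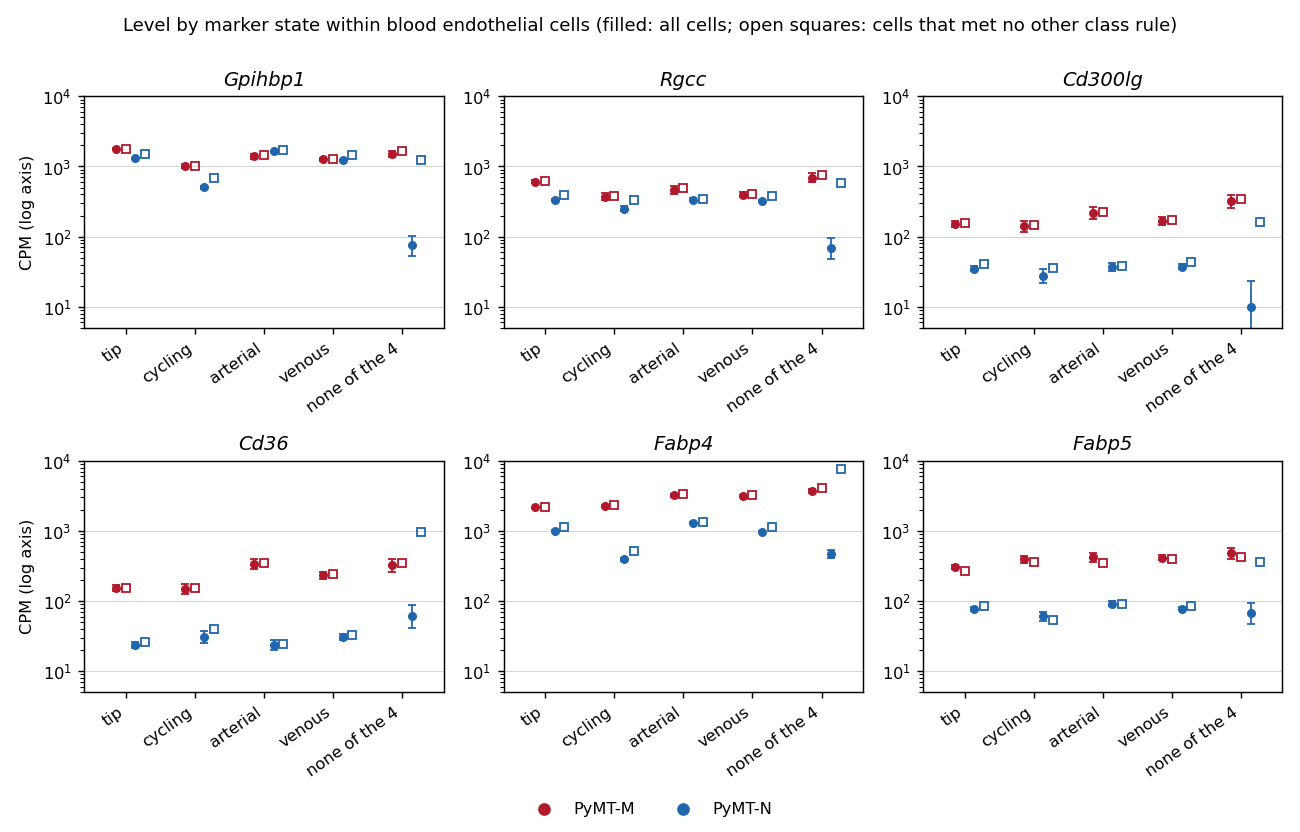
CPM (log axis) of the members in blood endothelial cells grouped by tip, cycling, arterial and venous markers, or with fewer than 3 UMIs of each list, in PyMT-M and PyMT-N. Filled circles are all cells with exact 95% intervals and open squares are cells that met no other class rule. Cd36 is higher in PyMT-M in the 4 marked groups. In the last group its order turns when overlapping cells are left out, where 1 PyMT-N cell held all 30 Cd36 UMIs.

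Other genes of the pathway were taken as lists. Of all 8995 ranked genes, 2.47% were at least 2-fold higher in PyMT-M and 5.17% lower, with a median log2 ratio of -0.02. The lists had 7 to 14 ranked genes, too few to set closely beside these shares. Of the fatty acid uptake and activation list, 8 of 12 genes were ranked and none was past 2-fold in either direction, with a median log2 ratio of 0.20. Among its genes with at least 50 UMIs the highest were Cav1, the coat protein of caveolae, at 700 CPM in PyMT-M and 361 CPM in PyMT-N (0.95, 0.88 to 1.02), and the fatty acid transporter Slc27a1 (0.81, on 17 and 50 UMIs). In cells that met no other class rule Slc27a1 was at 1.77 (0.76 to 2.76) on 17 and 21 UMIs, too few to be ranked. The lowest were the acyl-CoA synthetases Acsl1 (-0.86, -1.45 to -0.31) and Acsl3 (-0.40). Of the fatty acid oxidation genes, which break down the acids in mitochondria, 11 of 12 were ranked and 0 were past 2-fold, with a median of 0.09. Etfb and Acadvl were highest at 0.69 and 0.50, and Cpt2 and Acadm lowest at -0.16 and -0.12.

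Among genes of lipolysis and lipoprotein handling, 9 of 13 were ranked, 1 was at least 2-fold higher in PyMT-M and 1 lower, and the median was 0.36. The higher gene was Angptl4, whose product inhibits LPL and which is itself a PPAR target, at 133 CPM against 40.8 CPM (log2 ratio 1.70, 1.53 to 1.88). Lipe, the hormone-sensitive lipase, followed at 0.94. The lower gene was Apoe, at 105 against 334 CPM (-1.67), with Vldlr next at -1.15 on 11 and 126 UMIs, a ratio of -0.37 on 11 and 60 UMIs in cells that met no other class rule. Apoe turned direction in cells that met no other class rule, to 103 against 30.6 CPM (1.75, 1.54 to 1.96), while Angptl4 remained at 1.49. The macrophage list fell from 446 to 5.60 CPM in PyMT-N between the same selections.

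Of 12 lipid droplet genes 7 were ranked, 1 was at least 2-fold higher in PyMT-M and none lower, and the median was 0.16. Mgll, the monoglyceride lipase, was at 292 CPM in PyMT-M and 124 CPM in PyMT-N (1.24), and Fitm2 had a ratio of 0.88. Dgat2, which completes triglyceride synthesis, had 0 UMIs in PyMT-M against 94 in PyMT-N, of which 87 were in cells that met no other class rule. G0s2, an inhibitor of triglyceride lipase, had 2 and 91 UMIs, of which 0 and 1 were in such cells. Of the regulators, 14 of 19 were ranked, 1 was at least 2-fold higher and none lower, and the median was 0.05. That gene was Meox2, a homeobox factor that together with Tcf15 drives Cd36 and Lpl expression in heart endothelium. Meox2 stood at 159 CPM in PyMT-M and 35.1 CPM in PyMT-N (log2 ratio 2.18, 2.01 to 2.35), and at 160 and 42.5 CPM (1.91) in cells that met no other class rule. Tcf15 had a ratio of 0.76 (0.32 to 1.19). Cebpb was lowest at -0.88, and at 0.01 (24.9 against 24.7 CPM) in cells that met no other class rule. Of 10 other capillary genes 8 were ranked, and 1, the water channel Aqp1, was at least 2-fold higher, with 865 against 430 CPM (1.01). Sgk1 followed at 0.97. In cells that met no other class rule Aqp1 was at 0.92 and Sgk1 at 1.01, so these genes changed sides of the 2-fold line. The lowest were Sparcl1 and Slco2a1 at -0.47 and 0.00, with a list median of 0.32.

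The genes most like 5 of the members were ranked by Pearson's r over cells of log-scaled counts, taking the lower r of the libraries, among 8729 genes in 598 PyMT-M and 1243 PyMT-N blood endothelial cells. Gpihbp1 was most like Igfbp3 (r of 0.60 in PyMT-M, 0.79 in PyMT-N) and Sparc (0.53 and 0.74), followed by AA467197, Rgcc and Sparcl1. Rgcc was most like Gpihbp1 (0.41 and 0.44), then Sparcl1, Cd34, Sparc and Fam167b. Fabp4 was most like Fabp5 (0.66 and 0.50), then Tmsb4x, Tm4sf1, Cav1 and Hspb1. Fabp4 and Fabp5 are related genes, and how reads shared between them were counted was not examined. Cd300lg was most like Plpp3 (0.37 and 0.37), then Eng, Plvap, Col13a1 and Flt1, of which Flt1 was used to class the cells. Cd36 had weaker companions, with Tmcc3 at 0.30 and 0.25 and the lipoprotein receptor gene Scarb1 at 0.23 and 0.27, then Rasgrf2, Cavin2 and Ptprb. The cells of a library share its preparation and differ in depth, and no gene of these lists other than Rgcc, Gpihbp1 and Fabp5 is a member. The ranking includes cells that also met another class rule and was not repeated without them. At equal depth in PyMT-N, leaving them out took the r of Gpihbp1 with Rgcc from 0.29 to 0.12. That of Fabp4 with Fabp5 was 0.39 with and without them.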

How the data were processed

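The deposited values are UMI counts of each gene in each barcode, without normalization, which the authors made with Cell Ranger 8.0.0 on build mm39 per the submitters' processing notes. The protocol in the labels names collagenase I, and collagenase II with dispase II is given in the study's methods. Members, lists, cell rules and tests were chosen with earlier results of these data known. Cells with at least 200 genes and at most 10% mitochondrial UMIs were kept. Class rules may overlap. Counts were summed per class and library, scaled to CPM and compared as log2 ratios with the exact conditional interval of 2 Poisson counts, while CPM have exact Poisson and shares exact Clopper-Pearson 95% intervals. UMIs are counted molecules of 1 library, so intervals cover counting error only. With 1 library per condition there was no test, and "called" means past 2-fold. Levels of 0 were set against a floor of 3 UMIs over the library. In lists, the genes named are the 2 highest and 2 lowest ratios with at least 50 UMIs (1 of these is not reported here), and the most alike genes are the 5 highest by r. Genes detected in under 5% of cells of either library were left out of the latter. Scrublet called 0 cells in PyMT-M, so it did not work there, and 152 (2.71%) in PyMT-N, and doublets were not removed. Ratios were computed on simulated counts for the blood endothelial comparison over 8965 genes, where 95.56% of intervals held the true value and 100% of the 193 altered genes had the right direction. The simulated counts were Poisson, the model that the interval assumes, so this checks the computation only. It leaves out spread between cells and between tumors. The software was scanpy 1.11.5, matplotlib 3.10.9, pandas 2.3.3, scipy 1.17.1 and numpy 2.4.6 in Python 3.11.15. Human, imaging and proteomic data of the study were not used here.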

Additional observations from a re-analysis of the deposited data

Results flagged for a closer look

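Log2 ratios of PyMT-M over PyMT-N had opposite signs between cell classes for 3 members, among cells that met a single class rule. This counts only ratios whose intervals excluded 0, on more than 3 UMIs in each library. Signs also differed in ratios outside this limit, as for Rgcc at 0.56 in blood endothelial cells and -0.39 (-0.81 to 0.01) in Ptprc+ cells. The differences between classes were not tested, since each library is a single sample. Fabp5 had a log2 ratio of 2.04 in blood endothelial cells and -5.35 in tumor cells, where 38 UMIs in PyMT-M stood against 973 UMIs in 505 of 3278 PyMT-N cells, or 0.318 against 13 CPM. Gpihbp1 had a ratio of 0.07 in blood endothelial cells, which is close to equal, and -0.89 in tumor cells, at 0.736 against 1.36 CPM. In Ptprc+ cells the Gpihbp1 ratio was -5.31 on 2 and 138 UMIs. Fabp4 had a ratio of 1.36 in blood endothelial cells and -0.90 in Ptprc+ cells. Of the 120 Fabp4 UMIs of PyMT-N Ptprc+ cells 91 were in 1 cell, and the order in that class rests on this cell. In the Ptprc+ cells with macrophage markers the Fabp4 ratio was 1.38, in the same direction as in blood endothelial cells.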

How the results depend on the processing

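Cd36, Fabp4, Fabp5, Cd300lg and Lpl were at least 2-fold higher in PyMT-M in all 13 alternatives, with log2 ratios of 2.40 to 3.05, 1.36 to 3.0, 1.93 to 2.83, 2.10 to 5.02 and 1.74 to 3.68. The alternatives changed the cell filters, the minimum for blood endothelial cells, doublets, overlapping classes, scaling, depth and states. Of 129 member ratios over them, 97 stayed within the main interval, 31 moved beyond it and 1 turned direction from a main interval that excluded 0. The latter was Car4, at 1.41 on 7 and 5 UMIs in cells with fewer than 3 UMIs of each state list. There 10 members rather than 5 were at least 2-fold higher, where 20.0% of the 499 genes with at least 200 UMIs were. In the 74 and 7 of these cells that met no other class rule, a selection outside the 13, Cd36 (-1.51), Fabp4 (-0.92), Lpl (-2.99) and Car4 (-2.51) were lower in PyMT-M. All PyMT-N UMIs of Cd36 and of Lpl there, and 218 of 236 of Fabp4, were in 1 cell for each gene. The number of members at least 2-fold lower, 0, became 2 with gene numbers also within 2-fold of the library median and after thinning, 1 in cells of a single class rule, 1 without any UMI of Krt8, Krt18, Rhox5, Ptprc or Col3a1, and 1 at a fold of 1.5. The 10 members at least 2-fold higher in blood endothelial than tumor cells became 9 with that limit on gene numbers. Under it Timp4 had 0 UMIs in both classes of PyMT-M and so no fold. Those 0 UMIs also made Timp4 1 of the 2 lower members under this limit, beside Car4 at -1.58. Genes of the pathway lists past 2-fold numbered 5, and 8 with a minimum of 50 UMIs. Using only cells that met no other class rule for lists, states and co-detection was chosen after seeing the data, and 5 list genes were then past 2-fold: Angptl4, Mgll and Meox2 as before, Apoe in the other direction, and Sgk1 in place of Aqp1. Gpihbp1 ranged from 0.07 to 4.35, Rgcc from 0.56 to 3.33, Pparg from 0.50 to 1.82 and Timp4 from -1.47 to 2.88. The -1.47 of Timp4, after thinning, also changed sign, and is counted as moved because its main interval held 0. Timp4 had a finite ratio in 12 of the 13 alternatives. No paired analysis was possible because each group has 1 library. Car4, Lpl and Timp4 had 15, 21 and 7 UMIs in PyMT-M, which limits their ratios.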

Other observations

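Members differed between the libraries in both directions in the Ptprc+ cells with macrophage markers, of which there were 131 in PyMT-M and 127 in PyMT-N. Fabp5 stood at 1265 CPM in PyMT-M and 98.1 CPM in PyMT-N (log2 ratio 3.69, 3.45 to 3.94), and 55.7% and 41.7% of these cells carried it. Cd36 was at 66.3 and 8.18 CPM (3.02), Pparg at 79.0 and 15.8 CPM (2.32), Lpl at 99.5 and 19.3 CPM (2.37) and Fabp4 at 44.2 and 16.9 CPM (1.38). Rgcc was at 34.8 CPM in PyMT-M and 74.2 CPM in PyMT-N (-1.09), and Gpihbp1 at 3.16 against 53.2 CPM (-4.07, -7.14 to -2.18) on 2 and 91 UMIs. The 12 endothelial markers summed to 185 against 421 CPM in these cells. The 10 macrophage markers summed to 7465 against 4164 CPM and the 7 lymphocyte markers to 684 against 1484 CPM. The 2 groups are thus unlike mixtures, and the part of this in the ratios was not tested. The share of all genes past 2-fold was not computed in these cells. The median depth of these cells was 3215 and 9430 UMIs, and the PyMT-M ratios of Fabp4 rest on 28 and 29 UMIs. All Gpihbp1 UMIs of the PyMT-N fibroblasts, 25 in number, were in 1 cell.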
